A study of Mus musculus with 6 samples.

Results

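Fosl1, Junb, Nr4a1, Ier2 and Dusp1 are early response genes, whose transcripts are made at low levels in resting cells and rise quickly when growth factors, stress or injury activate MAP kinases. Fosl1 and Junb encode subunits of AP-1, a dimer of a FOS and a JUN protein that binds DNA through paired basic leucine zippers. Nr4a1 encodes an orphan nuclear receptor, Ier2 a small nuclear regulator, and Dusp1 a phosphatase that switches MAP kinases off again. In kidney, genes of this kind are known for their fast rise after ischaemia or other tubular stress, and also for responding to the handling of tissue.

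The 5 genes were chosen by name, from among 9519 genes that could be read in the data, and all 5 passed the filter on low counts that left 5246 genes for testing. They were measured by paired-end RNA sequencing of whole kidney from C57BL/6 mice, a standard inbred strain, at postnatal day 21. There were 3 libraries labelled acute renal failure (ARF) and 3 labelled healthy. Titles call the ARF-labelled libraries treat and the healthy-labelled ones control, while the names of the deposited count tables call them mutant and WT. No gene, allele or agent was named, so whether the contrast is one of genotype or of treatment cannot be told apart. The cause of renal failure was not stated, nor whether each library came from its own animal, so p-values measure the spread between libraries. The libraries are called ARF-labelled and healthy-labelled, because Krt8, a keratin that rises in damaged tubules, stood at 989, 930 and 643 CPM (counts scaled to the total of the library) in the ARF-labelled libraries, against 6046, 5530 and 4528 CPM in the healthy-labelled ones. Neutrophil markers, given further on with their limits, were also higher in the healthy-labelled libraries. Whether the labels were exchanged, or the healthy-labelled tissue was stressed, was not tested, and every direction given here would be reversed by an exchange.

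Total counts were 5455886, 5525366 and 6191479 in the ARF-labelled libraries, against 5710010, 2873370 and 3630813 in the healthy-labelled ones. Gene names in the deposited tables do not belong to the reads, so each row was named by the GRCm38 exons under its intervals, and only where 1 gene held a share of 0.9 or more of them. Kidney markers were present: the 7 of 16 proximal tubule markers that could be read summed to 3331 to 4917 CPM in the ARF-labelled and 6957 to 10940 CPM in the healthy-labelled libraries, and 5 of them were lower in the ARF-labelled ones. All 6 intercalated cell and all 4 principal cell markers read were higher. The intercalated cell marker Atp6v1b1 passed the filter on low counts only through the ARF-labelled libraries, which favours a higher value. Other segments were mixed: of 3 thick ascending limb markers tested 1 was lower and 1 higher. Of 3 distal convoluted tubule markers tested 2 were lower and 1 higher. Libraries of both groups also carried transcripts of the adrenal gland, which lies on the kidney. The steroid enzyme genes Cyp11a1 and Cyp11b2, the 2 of 8 adrenal markers that could be read, summed to 33.5, 0 and 771 CPM in ARF-labelled replicates 1, 2 and 3, against 269.5, 752 and 0 CPM in healthy-labelled replicates 1, 2 and 3. A count of 0 allows up to 0.543 CPM in ARF-labelled replicate 2 and 0.826 CPM in healthy-labelled replicate 3, for counting error only. Results that could rest on those libraries are given with and without them.

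Each gene was counted over part of its exons, on the GRCm38 build. Junb, on the minus strand of chromosome 8 (84974484 to 84978718), was read through 1431 of its 1809 exon bases, 943 of them coding, in the row named Mri1. Fosl1, on the plus strand of chromosome 19 (5447547 to 5455946), was read through 90 coding bases of exon 2 of 4, in the row named Tsga10ip. Dusp1, on the minus strand of chromosome 17 (26505590 to 26562128), was read through 327 bases of 3′ untranslated exon. Ier2, on the minus strand of chromosome 8 (84661331 to 84662852), was read through 417 of 1522 bases, 152 of them coding. Nr4a1, on the plus strand of chromosome 15 (101254269 to 101274795), was read through 68 bases near the end of its 3′ untranslated region. Every one of these rows also covered bases that are not exons of the gene. Outside exons but within the gene lay 1097 bases for Fosl1, 920 for Nr4a1 and 375 for Junb, and 0 for Dusp1 and Ier2. Outside the gene lay 2554 bases for Nr4a1, 2519 for Ier2, 1467 for Junb, 539 for Fosl1 and 120 for Dusp1. Reads from those bases cannot be separated from the gene's own. Because the stretches differ, levels are compared between libraries and never between genes. The 90 coding bases of Fosl1 at chr19:5450262-5450351, from the GENCODE M21 transcript, are shown because they are the exon part of the row with the widest difference among the 5 genes:
Fosl1 exon stretch: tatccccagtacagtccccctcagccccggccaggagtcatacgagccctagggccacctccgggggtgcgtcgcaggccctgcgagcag

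The 250 bases before the RefSeq start (GRCm38.p6) are shown for the 3 members with an entry, as the region where signal-responsive factors bind in genes of this class; Fosl1 and Ier2 had no entry. Capitals mark TGACG in either direction, so CGTCA where it lies on the other strand, which is the core of the cAMP response element bound by CREB and by some AP-1 dimers.
Junb, chr8:84978749-84978998, minus strand: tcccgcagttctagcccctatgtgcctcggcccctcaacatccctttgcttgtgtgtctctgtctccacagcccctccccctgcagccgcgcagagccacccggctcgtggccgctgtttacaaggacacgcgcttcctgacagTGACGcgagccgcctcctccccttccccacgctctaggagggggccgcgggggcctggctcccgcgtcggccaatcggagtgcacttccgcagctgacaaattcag
Dusp1, chr17:26508473-26508722, minus strand: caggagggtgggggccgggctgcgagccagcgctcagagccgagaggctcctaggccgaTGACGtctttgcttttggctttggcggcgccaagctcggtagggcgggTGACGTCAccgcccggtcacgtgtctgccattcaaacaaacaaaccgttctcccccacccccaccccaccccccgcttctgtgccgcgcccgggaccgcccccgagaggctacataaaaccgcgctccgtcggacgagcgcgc
Nr4a1, chr15:101266596-101266845, plus strand: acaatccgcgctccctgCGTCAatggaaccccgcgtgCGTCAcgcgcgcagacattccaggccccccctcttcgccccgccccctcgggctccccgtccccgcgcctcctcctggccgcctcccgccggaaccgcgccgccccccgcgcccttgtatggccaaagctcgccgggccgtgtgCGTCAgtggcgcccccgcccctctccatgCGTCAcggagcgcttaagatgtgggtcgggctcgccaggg

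Junb held 1 match, Dusp1 3 and Nr4a1 4, where 17.8% of 32851 promoters of this length held at least 1, 0.688% at least 3 and 0.137% at least 4. In Nr4a1 the matches began 233, 213, 69 and 40 bases before the start. In Dusp1 a pair of matches overlapped in the full palindrome TGACGTCA, which began 143 bases before the start and was present in 1.55% of promoters. Neither the AP-1 site TGANTCA, held by 6.75% of promoters, nor the CArG box of serum response factor, held by 1.47%, was found on either strand in these 3 windows. A match is a description of these letters and not evidence of binding.

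All 5 early genes were lower in the ARF-labelled libraries (edgeR quasi-likelihood test, Benjamini-Hochberg adjusted p under 0.05), where 50% of all genes tested were called, 24.9% lower and 25.1% higher. That even split depends on the scaling: of the calls 50.3% were higher with TMM factors (a trimmed mean of ratios) and 63.3% with scaling by total count, and the 5 genes were lower under both. The shares of 24.9% lower and 25.1% higher are the background for every list count given in the text. In all 5 every ARF-labelled library lay below every healthy-labelled one in CPM, as did 22.4% of all genes tested, while 40% lay wholly above. These shares use scaling by total count, without TMM factors. The median log2 fold change of the 5 early genes, ARF-labelled over healthy-labelled, was -2.49, against 0.01 over all genes. The genes were chosen with earlier results of these data known, so their direction is not independent support for a pattern. Fosl1 also passed the filter on low counts only through the healthy-labelled libraries, which favours a lower value. In whole tissue, fewer cells that make a transcript and less of it in each cell cannot be told apart.

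**Figure D1:**
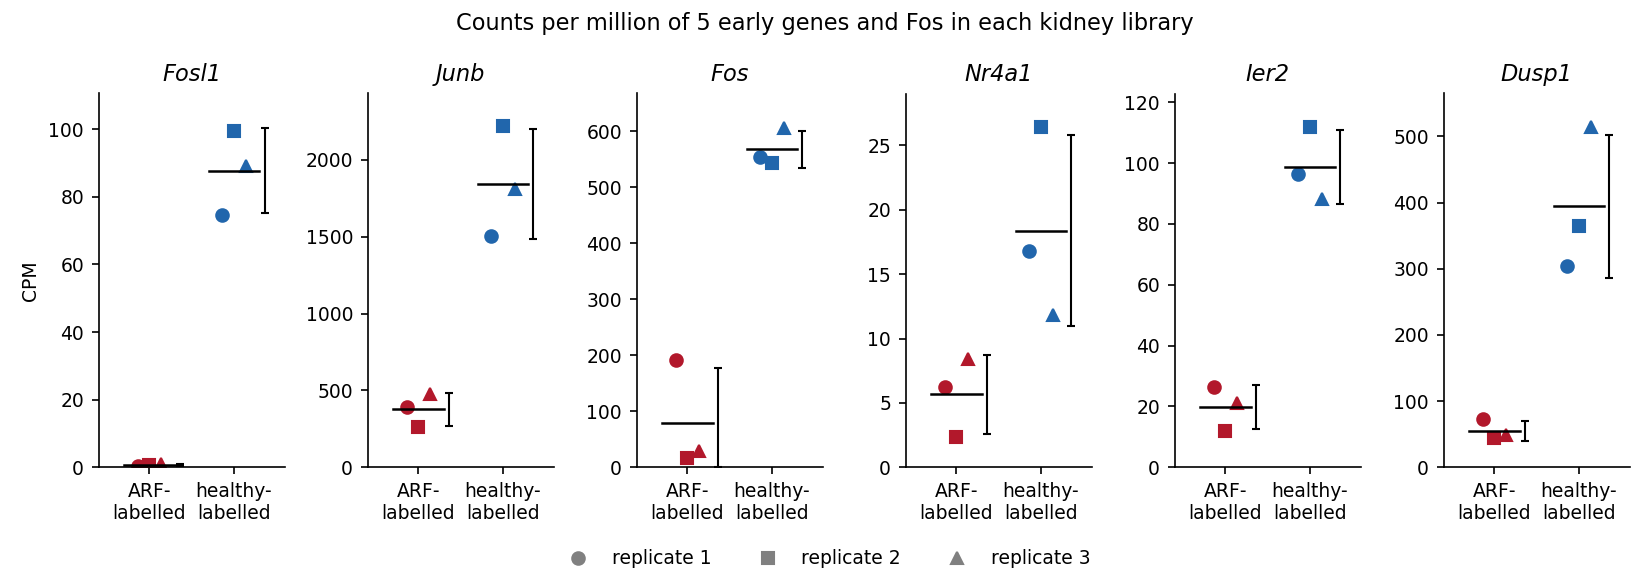
CPM of each early gene and of Fos (linear axes from 0) in the ARF-labelled (red) and healthy-labelled (blue) libraries; symbols are replicates, lines are means and bars are SD over 3 libraries, cut at 0 for Fos. In every panel the red points lie below the blue ones, and Fos in ARF-labelled replicate 1 stands at 192 CPM, far above the other 2 ARF-labelled libraries.

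Among the AP-1 subunits, Fosl1 encodes FRA-1, a FOS-family protein of migrating and injured epithelia that lacks the strong activation domain of FOS. It had 0.367, 0.543 and 0.969 CPM in the ARF-labelled libraries, against 74.6, 99.5 and 89.2 CPM in the healthy-labelled ones. The lowest healthy-labelled library was thus 77.0-fold above the highest ARF-labelled one. Those levels rest on 2, 3 and 6 counts in the ARF-labelled libraries and 426, 286 and 324 in the healthy-labelled ones. The summed counts, scaled by the library totals, were 132-fold higher in the healthy-labelled libraries (95% exact interval 73.7 to 266, counting error only). The fitted log2 fold change was -7.21 (SE 0.25, adjusted p = 2.72e-06), and 0.114% of the genes tested had a lower value.

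Junb encodes a JUN-family partner that often restrains proliferation. It had 392, 263 and 473 CPM in the ARF-labelled libraries, against 1504, 2218 and 1808 CPM in the healthy-labelled ones. The groups were well separated, with the lowest healthy-labelled library 3.18-fold above the highest ARF-labelled one. Its mean was 376 ± 106 CPM in the ARF-labelled and 1843 ± 358 CPM in the healthy-labelled libraries (SD, n = 3 each; log2 fold change -2.47, SE 0.23, adjusted p = 7.09e-05). With 1452 to 8588 counts per library it is the most deeply counted of the 5 genes.

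Fos, the classical partner of JUN proteins, was read through 637 exon bases. Its row also covered 482 bases outside the gene, whose reads cannot be separated. Fos differed from the others in its spread. It had 192, 16.5 and 29.1 CPM in the ARF-labelled libraries, against 554, 544 and 606 CPM in the healthy-labelled ones. The highest ARF-labelled library was 11.7-fold above the lowest, while the healthy-labelled libraries lay within 1.11-fold of each other. The log2 fold change was -3.02 (SE 0.78, adjusted p = 0.0119), and it was -4.80 (adjusted p = 4.65e-05) without ARF-labelled replicate 1. In that same replicate Dusp1 and Ier2 were also at their highest among the ARF-labelled libraries, whereas Fosl1 was at its lowest and Junb and Nr4a1 lay between the other 2.

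Of 19 AP-1 family genes listed, 4 could be read, and all 4 were lower. The remaining gene, Batf2, encodes a BATF-type leucine zipper protein of immune cells and stood at 1.09 ± 0.54 CPM in the ARF-labelled libraries, against 3.74 ± 1.28 CPM in the healthy-labelled ones (SD, n = 3 each). It passed the edgeR test with few counts (log2 fold change -1.88, SE 0.46, adjusted p = 0.00942). Like Fosl1, it passed the filter on low counts only through the healthy-labelled libraries. For these genes a lower value was favoured in advance. Jun, which encodes the founding JUN protein, lay in a row with 79.1% of its overlapped exon bases and was therefore not assigned under the rule. When a share of 0.5 was accepted, the row assigned to Jun had 33.7, 22.4 and 33.9 CPM in the ARF-labelled libraries, against 120, 147 and 190 CPM in the healthy-labelled ones (log2 fold change -2.54, SE 0.21, adjusted p = 6.34e-05). Since the row also overlaps exon bases that are not Jun's, its reads are uncertain.

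Among the transcription regulators, Ier2 had 26.4, 11.9 and 21.0 CPM in the ARF-labelled libraries, against 96.3, 112 and 88.1 CPM in the healthy-labelled ones. The groups did not overlap, and the spread was 2.21-fold within the ARF-labelled and 1.27-fold within the healthy-labelled libraries. The log2 fold change was -2.49 (SE 0.25, adjusted p = 0.000103). A further row holding 79.5% Ier2 exon bases was left out under the rule, and with it added the log2 fold change was -2.41 (SE 0.27).

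Nr4a1 encodes NUR77, a receptor without a known hormone that acts in steroidogenic tissue, immune cells and metabolism. It had 6.23, 2.35 and 8.40 CPM in the ARF-labelled libraries, against 16.8, 26.4 and 11.8 CPM in the healthy-labelled ones. The groups came closest in this gene, with the lowest healthy-labelled library 1.41-fold above the highest ARF-labelled one. Over all 6 libraries it is also the most sparsely counted of the 5, with 34, 13 and 52 counts in the ARF-labelled libraries and 96, 76 and 43 in the healthy-labelled ones, while Fosl1 had fewer in the ARF-labelled libraries alone. The log2 fold change of Nr4a1 was -1.85 (SE 0.43, adjusted p = 0.00785).

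Within each group the order of Nr4a1 was the order of the adrenal enzyme genes: replicate 3, then 1, then 2 in the ARF-labelled libraries, and replicate 2, then 1, then 3 in the healthy-labelled ones. Tpm2 and Gm45847, given further on as near in profile to Nr4a1, had this order too. The share of all genes with it was not counted. Between the libraries with no counts of Cyp11a1 and Cyp11b2, Nr4a1 stood at 2.35 CPM in ARF-labelled replicate 2, against 11.8 CPM in healthy-labelled replicate 3. With the adrenal level as a covariate the log2 fold change of Nr4a1 was -1.78 (SE 0.27, adjusted p = 0.00115), and without the library of each group highest in adrenal genes it was -1.94 (SE 0.45, adjusted p = 0.0112). The other 4 early genes had log2 fold changes of -2.46 for Junb, -7.21 for Fosl1, -3.02 for Dusp1 and -2.47 for Ier2 with the covariate. Without those 2 libraries the values were -2.52 for Junb, -7.59 for Fosl1, -2.998 for Dusp1 and -2.46 for Ier2.

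Its relative Nr4a3 (NOR-1) stood at 9.53, 5.25 and 55.6 CPM in the ARF-labelled libraries, against 62.5, 146 and 93.9 CPM in the healthy-labelled ones. ARF-labelled replicate 3, the ARF-labelled library richest in adrenal transcripts, was close to the lowest healthy-labelled library. Among the healthy-labelled libraries Nr4a3 did not keep the adrenal order, with 93.9 CPM in replicate 3 against 62.5 CPM in replicate 1. The log2 fold change was -2.26 (SE 0.73, adjusted p = 0.0309), and -3.58 (adjusted p = 0.000185) without the 2 libraries highest in adrenal genes. The call was lost without healthy-labelled replicate 2 (adjusted p = 0.0725), healthy-labelled replicate 3 (0.0642), ARF-labelled replicate 1 (0.0864) or ARF-labelled replicate 2 (0.0618), and the log2 fold change was -3.90 without ARF-labelled replicate 3.

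**Figure D2:**
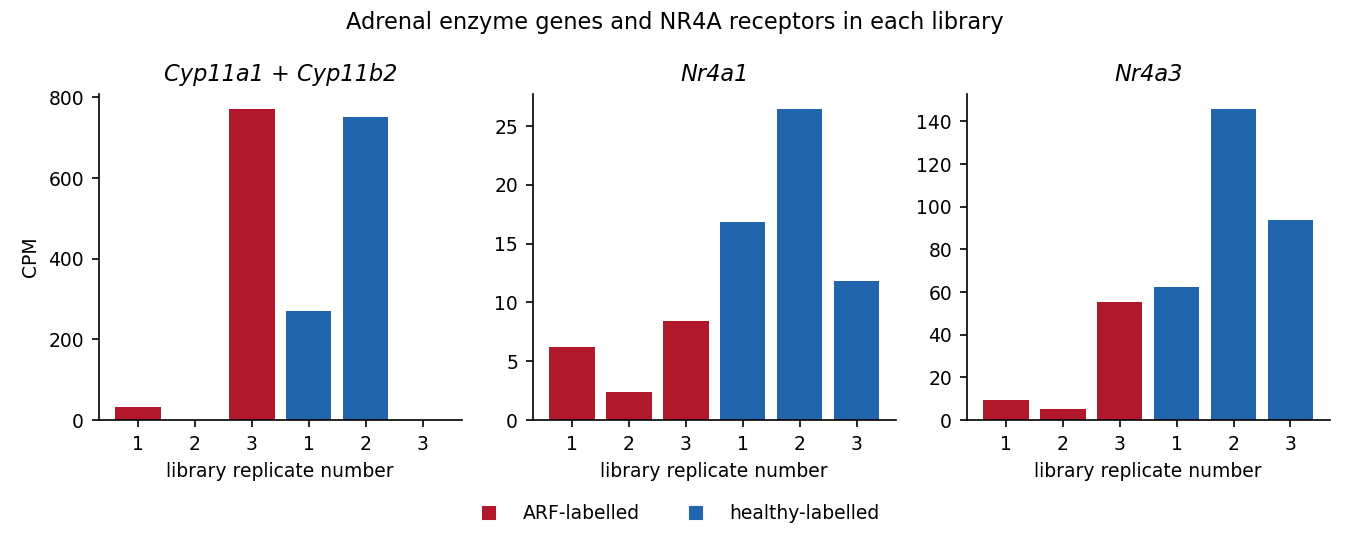
CPM in each library of the adrenal enzyme genes Cyp11a1 and Cyp11b2 summed (left), Nr4a1 (middle) and Nr4a3 (right), with ARF-labelled libraries in red and healthy-labelled in blue. Adrenal transcripts reach 771 and 752 CPM in 1 library of each group and are at 0 in ARF-labelled replicate 2 and healthy-labelled replicate 3, and Nr4a1 follows the same order within each group. Nr4a3 follows it in the ARF-labelled libraries only.

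Dusp1, the signal-terminating member, encodes MKP-1, a nuclear phosphatase that prefers p38 and JNK. It had 72.4, 43.8 and 48.5 CPM in the ARF-labelled libraries, against 304, 365 and 514 CPM in the healthy-labelled ones. Every ARF-labelled library was at least 4.19-fold below every healthy-labelled one, the widest gap among the 5 genes after Fosl1. The log2 fold change was -3.02 (SE 0.25, adjusted p = 4.55e-05). Of 5 phosphatases of the family that were tested among 18 listed, 3 were lower and 0 higher. For Dusp8, a phosphatase of JNK and p38, the log2 fold change was -2.53 (SE 0.26), and for Dusp16, a phosphatase of JNK, it was -0.68 (SE 0.11). Dusp9 (-0.18, adjusted p = 0.689) and the catalytically inactive Styx (-0.31, adjusted p = 0.309) did not pass the test.

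**Figure D3:**
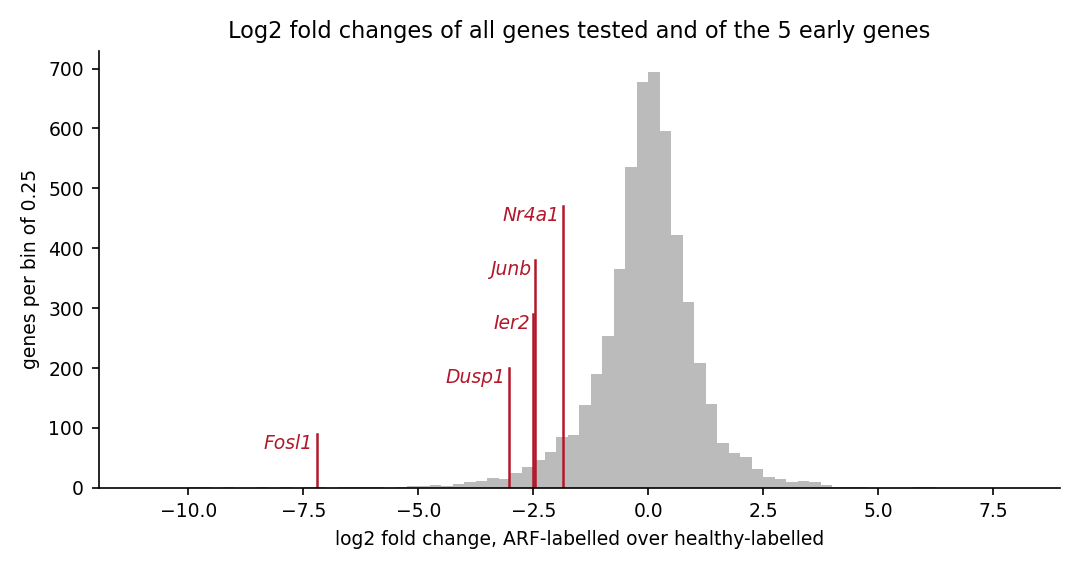
Log2 fold changes of all 5246 genes tested (grey bars, bins of 0.25), with the 5 early genes as red lines of arbitrary height. Nr4a1 at -1.85, Junb at -2.47, Ier2 at -2.49 and Dusp1 at -3.02 lie in the left flank and Fosl1 at -7.21 in the far left tail.

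Relative to Junb in the same library, the early genes are described by their counts per 1000 Junb counts. Fosl1 had 0.934, 2.07 and 2.05 such counts in the ARF-labelled libraries, against 49.6, 44.9 and 49.4 in the healthy-labelled ones. This ratio did not overlap between the groups, and its mean log2 difference was -4.92 (exact permutation test, two-sided, p = 0.1, the smallest that 3 against 3 libraries can give). For Ier2 it was 67.3, 45.5 and 44.4 in the ARF-labelled libraries, against 64.0, 50.5 and 48.8 in the healthy-labelled ones, with a mean log2 difference of -0.07 (exact p = 0.6). The ratios of Dusp1 (mean log2 difference -0.53, exact p = 0.3) and Nr4a1 (0.51, exact p = 0.3) overlapped between the groups. After adjustment over these 4 ratios the p-values were 0.4 for Fosl1, Dusp1 and Nr4a1 and 0.6 for Ier2, and no p under 0.05 could be reached in this design. Fos had 490, 62.7 and 61.4 counts per 1000 Junb counts in the ARF-labelled libraries, against 368, 245 and 335 in the healthy-labelled ones. That ratio was highest of all 6 in ARF-labelled replicate 1.

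**Figure D4:**
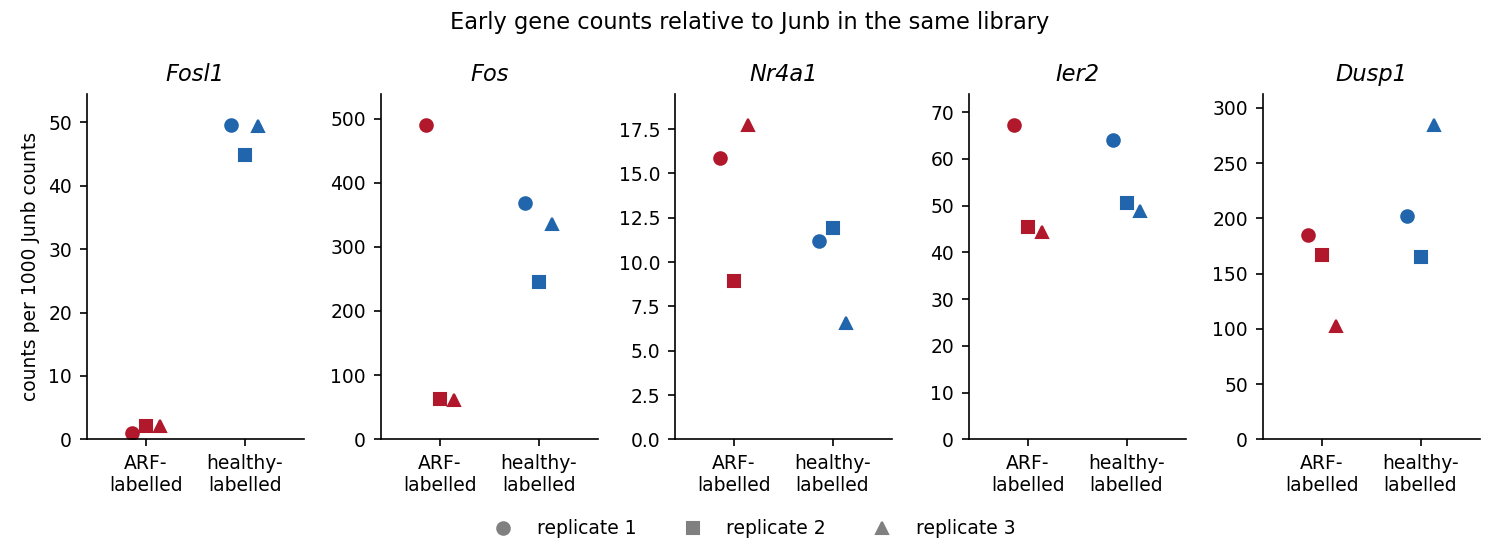
Counts per 1000 Junb counts in the same library for Fosl1, Fos, Nr4a1, Ier2 and Dusp1 (linear axes from 0; symbols are replicates). Fosl1 alone among these panels separates the groups, at 0.934 to 2.07 in the ARF-labelled libraries, against 44.9 to 49.6 in the healthy-labelled ones.

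Most of the wider set of early genes was lower as well. Over the AP-1 list and both immediate early lists, 21 genes were tested, 19 were lower and 0 higher, with a median log2 fold change of -2.47. Among all genes tested 24.9% were lower and 25.1% higher. Fosl1 and Batf2 are among the 19 and passed the filter on low counts only through the healthy-labelled libraries. Without the 5 early genes described above, 14 of 16 were lower and 0 higher, with a median of -2.28. Of 26 immediate early transcription factor genes listed, 7 were tested and 6 were lower. Klf4, an epithelial differentiation factor, had 62.3, 43.3 and 68.3 CPM in the ARF-labelled libraries, against 267, 340 and 321 CPM in the healthy-labelled ones (log2 fold change -2.59, SE 0.18). Ier5, a regulator of heat shock factor, was lower at 10.5 ± 0.90 CPM in the ARF-labelled libraries, against 38.0 ± 14.1 CPM in the healthy-labelled ones (SD, n = 3 each). Klf10, induced by TGF-beta, was lower too (log2 fold change -1.01, SE 0.16). Srf, the serum response factor that drives many early genes, had a log2 fold change of -0.48 and did not pass the test (adjusted p = 0.0992), although it did without healthy-labelled replicate 1 (-0.70).

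Of 45 early signalling and RNA-binding genes listed, 10 were tested, 9 were lower and 0 higher. Plk3, a stress-activated kinase, had 44.2, 35.1 and 28.6 CPM in the ARF-labelled libraries, against 342, 329 and 565 CPM in the healthy-labelled ones (log2 fold change -3.69, SE 0.26). The log2 fold change was -3.28 (SE 0.31) for Spry4, a feedback inhibitor of receptor tyrosine kinase signalling, and -2.96 (SE 0.29) for Nfkbiz, which encodes an atypical IkB protein. Arc, an early gene best known from neurons, had -2.65 (SE 0.23), and Sik1, a salt-inducible kinase, -2.31 (SE 0.18). Smaller falls were measured for Btg2, an antiproliferative gene (-1.73, SE 0.14), and Mcl1, a survival factor (-1.51, SE 0.14). Gem, a small GTPase, was not called (-0.40, adjusted p = 0.108) except without healthy-labelled replicate 3 (-0.58).

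**Figure D5:**
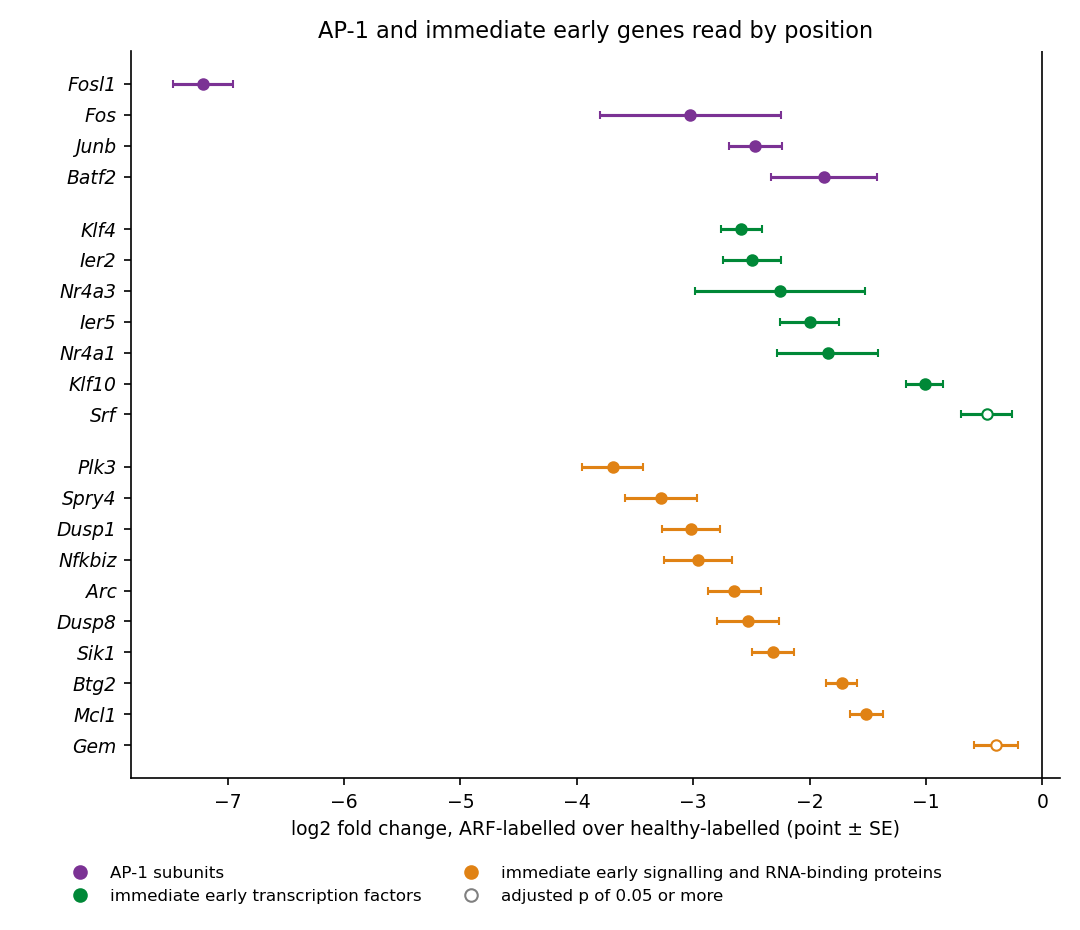
Log2 fold change, ARF-labelled over healthy-labelled, with SE, for the 21 AP-1 and immediate early genes tested, coloured by list; open symbols did not pass the test. All 21 points lie below 0, from Fosl1 at -7.21 to Gem at -0.40.

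All tested genes listed as AP-1 targets fell as well; they include the injury keratin Krt8 given above. Of 31 listed, 7 were tested and all 7 were lower, with a median log2 fold change of -3.26. A further 3 were read but had too few counts to be tested. Some of the 7, Mmp3 and Mmp10 among them, passed the filter on low counts only through the healthy-labelled libraries. For those a lower value was favoured in advance, so the count and the median rest partly on the filter. Mmp3, the matrix metalloprotease stromelysin, had 3.30, 1.63 and 2.91 CPM in the ARF-labelled libraries, against 56.2, 60.9 and 49.6 CPM in the healthy-labelled ones (log2 fold change -4.57, SE 0.22, adjusted p = 6.11e-06). Mmp10, a neighbouring stromelysin gene, had 1 count in all in the ARF-labelled libraries, against 66 in the healthy-labelled ones. Scaled by the totals, healthy-labelled over ARF-labelled was 92.8 (95% exact bounds 16.1 and 3720, counting error only). Mmp14, which activates other metalloproteases at the cell surface, had -1.77 (SE 0.18), and the receptor kinase gene Axl -1.59 (SE 0.23).

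Genes of the MAP kinase cascade upstream went both ways, with more lower than higher. Of 55 listed genes 30 were tested, 15 were lower and 4 higher, with a median log2 fold change of -0.37. Over all genes tested 24.9% were lower and 25.1% higher. Map3k8, the kinase TPL2 that activates ERK signalling downstream of inflammatory receptors, had 18.3, 13.9 and 18.1 CPM in the ARF-labelled libraries, against 60.2, 104 and 96.7 CPM in the healthy-labelled ones (log2 fold change -2.53, SE 0.22). Rps6ka3, which encodes the ERK-activated kinase RSK2, was lower at -1.55 (SE 0.09), as was Egfr, a growth factor receptor of the tubule, at -0.81 (SE 0.13). Mapk14, the p38 alpha kinase, had 0.20 (adjusted p = 0.197), and Hras -0.02 (adjusted p = 0.905). The 4 that rose were Mapk10 (1.34, SE 0.47), Sos1 (0.55, SE 0.14), Mknk2 (0.42, SE 0.12) and Map3k4 (0.37, SE 0.13). Mapk10 passed the filter on low counts only through the ARF-labelled libraries, which favours a higher value. With scaling by total count 14 were lower and 8 higher, and without the 2 libraries highest in adrenal genes 14 were lower and 0 higher.

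The heat shock genes that could be tested were mixed, and most of those listed could not be. The part of tissue handling in the early gene levels was not tested. Of 5 tested among 18 listed, the mitochondrial chaperonin gene Hspe1 was lower (-1.76, SE 0.18), Hspa4l (0.92, SE 0.11) and Cryab (0.36, SE 0.13) were higher, and Hsph1 (-0.54, adjusted p = 0.0632) and Hsf1 (0.28, adjusted p = 0.0723) did not pass. Of 7 hypoxia response genes tested among 20 listed, 3 were lower and 0 higher.

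Most tested markers of blood and immune cells, and some of endothelium and podocytes, were lower along with the early genes. Lower calls made up 24.9% of all genes tested. Markers of fibroblasts, smooth muscle and urothelium went both ways. The neutrophil markers Csf3r and Mmp8, 2 of 11 listed, summed to 3.08 to 6.95 CPM in the ARF-labelled libraries, against 46.6 to 155 CPM in the healthy-labelled ones. Both were lower, but Mmp8 passed the filter on low counts only through the healthy-labelled libraries. A lower value of Mmp8 was therefore favoured in advance. Of 7 macrophage and dendritic cell markers tested among 14 listed, 6 were lower, with sums of 37.0 to 43.4 CPM in the ARF-labelled and 59.5 to 122 CPM in the healthy-labelled libraries. Mrc1, among the 6, also passed the filter only through the healthy-labelled libraries. Of 3 erythroid markers tested among 8 listed, 2 were lower, with sums of 117 to 283 CPM in the ARF-labelled and 315 to 909 CPM in the healthy-labelled libraries. Of 5 endothelial markers tested among 10 listed, Pecam1 (log2 fold change -1.29, SE 0.16), Eng (-1.03, SE 0.25) and Robo4 (-2.39, SE 0.29) were lower and 0 higher, with sums of 127 to 140 CPM in the ARF-labelled and 168 to 313 CPM in the healthy-labelled libraries. Synpo, the 1 podocyte marker read of 7 listed, was lower (-2.37, SE 0.22). Of 7 fibroblast and smooth muscle markers tested among 10 listed, 1 was lower, 2 were higher and 4 were not called. Of 3 urothelium markers tested among 8 listed, 1 was lower and 1 higher. The part of these cells and of the nephron segments above in the lower early gene levels was not tested.

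The genes whose profiles over the 6 libraries were most like each early gene were found by the root mean square difference of log2 CPM, each gene centred on its own mean, among 5241 other genes. Junb was closest to Fndc4 (0.104), Klf4 (0.106) and Sbno2 (0.154). Ier2 was closest to Sik1 (0.189), Klf4 (0.216) and Sbno2 (0.240), so that it and Junb shared 2 of their 3 neighbours, and they differed from each other by 0.227. Dusp1 was closest to the oncostatin M receptor gene Osmr (0.199), Arid5a (0.203) and Nfkbiz (0.203). Nr4a1 was closest to Batf2 (0.278), Gm45847 (0.281) and the tropomyosin gene Tpm2 (0.282). No gene came as near to Fosl1: its closest were the kinase scaffold gene Akap12 (0.445), Hpcal4 (0.497) and Sprr2d (0.577), the last of a family of near-identical copies and with 0 counts in all 3 ARF-labelled libraries. Against the other 4 early genes Fosl1 differed by 1.85 to 2.42.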

How the data were processed

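Whole kidney RNA (Trizol, TruSeq libraries from total RNA, per the labels' protocols) gave 6 libraries, grouped by the labelled diagnosis. The authors deposited counts per row made with featureCounts 2.0.1 over exons without strand, per the file headers; Bowtie 0.12.2 and mm9 appear in the submitters' processing notes. For these counts an aligner is not given in any source used here. Intervals were intersected with GRCm38 exons (GENCODE M21 basic, protein-coding and long non-coding genes) with bedtools 2.31.1. A row was assigned where 1 gene held a share of 0.9 or more of the exon bases it overlapped and no fewer than 25 bases, giving 12401 rows, 9519 genes and 63.0% of the counts.

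Differences were tested with edgeR 4.0.16 (quasi-likelihood, TMM, filterByExpr, totals over all rows, group only) in R 4.3.3, with adjusted p under 0.05 over all 5246 genes; SE is the log2 fold change divided by the square root of F. CPM is relative to the total. The procedure was tested on simulated data with few changed genes and a single dispersion. Those settings differ from these data, so the simulation does not measure the error rate here. The members and gene lists were chosen with earlier results of these data known. Named genes are the members, list genes and the 3 nearest profiles per member; Cyp21a1, Chga and the row of Jun, which fails the assignment rule, were added after their values were seen. No set test was made. The deposited table of the whole series was not used here. Alternatives were other scalings, filters and assignment rules, DESeq2 1.42.0, a replicate block and leaving out each library; those with adrenal genes were added after the data were seen. The values of 1 listed gene are not reported here.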

Additional observations from a re-analysis of the deposited data

How the results depend on the processing

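All 5 early genes were lower with an adjusted p under 0.05 in every alternative that could be run for them, and the count of calls ran from 2117 to 3480 over the alternatives. Leaving out 1 library at a time gave log2 fold changes of -2.65 to -2.26 for Junb, -7.65 to -6.94 for Fosl1, -3.25 to -2.80 for Dusp1, -2.73 to -2.23 for Ier2 and -2.23 to -1.48 for Nr4a1, and 2117 to 2495 genes called. With at least 100 exon bases required, Fosl1 and Nr4a1 could not be read. Scaling by total count put the median over all genes at 0.19, TMM at 0.01 and DESeq2 size factors at 0.00 (log2). With replicate number as a block, 2288 genes were called against 2624, and no early gene lost its call (Nr4a1 -1.87, adjusted p = 0.0208). Same-numbered libraries did not deviate together (correlations -0.07, -0.22 and -0.29 over genes). The largest correlation, 0.245, was between ARF-labelled replicate 3 and healthy-labelled replicate 2, the libraries richest in adrenal transcripts. Whether uneven adrenal content shapes these values was not tested, and they cannot settle whether the numbers mark pairs or batches. Depth limits Fosl1 in the ARF-labelled libraries, at 2 to 6 counts, and Nr4a1, at 13 to 52.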

Other observations

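Other transcripts known from the adrenal gland varied between the libraries too. Cyp21a1, the 21-hydroxylase gene of the adrenal cortex, had 433, 5 and 10955 counts in ARF-labelled replicates 1, 2 and 3, against 2176, 3051 and 11 counts in healthy-labelled replicates 1, 2 and 3. It has a near-identical copy in mouse, so its reads are uncertain. The 2 libraries with 0 counts of Cyp11a1 and Cyp11b2 thus had 5 and 11 counts of it. Chga, a secretory granule gene of the adrenal medulla and other neuroendocrine cells, had 0, 0 and 197 counts in the ARF-labelled libraries, against 46, 63 and 0 in the healthy-labelled ones. Both were chosen after their values were seen.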
